A study of Mus musculus with 9 samples.

Results

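Single H3K27ac islands that were at least 3 times as wide in WT as in dKO naive CD8+ T cells are described here. Merging WT and dKO islands with at least 1 bp in common gave 76633 regions. Of these, 30243 on chromosomes 1 to 19 held exactly 1 island of each list and are called single-pair regions below. The members were the 902 single-pair regions, 2.98% of them, in which the WT island was narrower than 30 kb and at least 3 times as wide as the dKO island. They were selected on their widths in these same lists, so their widths, and the counts that go with widths, are descriptions and not findings. The mirror set, in which the dKO island was at least 3 times as wide, held 786 regions.

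Both groups were GFP+ TCRβ+ CD62Lhi CD44lo-med CD8+ splenic T cells of mice with the hCD2-Cre transgene, which acts chiefly in mature peripheral T cells, and a Rosa26 GFP reporter of Cre activity. WT cells had intact Tcf7 and Lef1 alleles, and dKO cells carried floxed Tcf7 and Lef1 alleles deleted by Cre, which removes the transcription factors Tcf1 and Lef1. H3K27ac was measured in 4 WT and 3 dKO samples with 1 input sample each, from mice of 6 to 12 weeks and of both sexes per the study's methods. The deposited values are 1 list of islands per genotype, called on the pooled replicates, so the spread between mice is not known, every difference lacks a check against replicates, and no test was run. The 95% intervals reflect the number of reads, regions or matches alone.

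There were 65563 islands with 82668007 counts in WT and 82213 islands with 57665047 counts in dKO. In both lists island borders fell on a grid of 200 bp, and the smallest gap between neighbouring islands was 600 bp. The smallest island count was 58 in WT and 43 in dKO, and the lowest read densities were 82.3 (WT) and 54.6 (dKO) counts per kb. Stretches outside the islands carry no value in these lists. All 8 of the naive CD8 T cell markers looked up, such as Cd3e, Cd8a and Ccr7, had an island within 1 kb of a transcription start site (TSS) in both lists. The same was true of 9 of 11 markers of other cell types, including Cd79a, Csf1r and Cd4, and the part of other cells in the results was not tested.

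H3K27ac is an acetyl mark on the tail of histone H3 that is placed by the acetyltransferases p300 and CBP at active enhancers and promoters. SICER joins enriched windows into islands, so an island's width reflects how far a stretch of acetylated nucleosomes rises above background. Tcf1 and Lef1 are HMG-box factors that bind DNA and bend it, and Ets and Runx factors are other widely used DNA-binding proteins of T cells.

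The sequences below are those of stretches that remained called in dKO cells in 4 of the members with the largest width ratios, and of stretches in the only 2 members that held a chromatin accessible site listed by the study. They are from the mm9 build, plus strand, and show what kind of sequence the islands covered, kept in dKO for all but the Rgmb window. The Enox1 sequence is the whole dKO island, chr14:77960801-77961000, in an intron. The Syne1 sequence, chr10:4891251-4891550, over a gene body with an exon under the WT island, the intergenic sequence nearest to Rnf144a, chr12:26455651-26455950, and the intergenic sequence near Chd1, chr17:15815151-15815450, are the middle 300 bp of the dKO islands. The sequences near Thbs1, chr2:117833801-117834000, and at Rgmb, chr17:15958801-15959000, are the 200 bp grid windows that hold the centres of the accessible sites. Capitals mark matches, on either strand, to CTTTGAA or CTTTGAT (Tcf/Lef), CAGGAAG or CCGGAAG (ETS), TGTGGTT or TGCGGTT (RUNX) and TGACTCA or its reverse complement TGAGTCA (AP-1). No 7-letter word belongs to more than 1 family.
Enox1: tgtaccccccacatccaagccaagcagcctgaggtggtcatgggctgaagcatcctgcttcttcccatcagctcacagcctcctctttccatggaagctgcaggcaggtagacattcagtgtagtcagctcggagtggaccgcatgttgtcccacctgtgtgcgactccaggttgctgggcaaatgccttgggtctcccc
Syne1: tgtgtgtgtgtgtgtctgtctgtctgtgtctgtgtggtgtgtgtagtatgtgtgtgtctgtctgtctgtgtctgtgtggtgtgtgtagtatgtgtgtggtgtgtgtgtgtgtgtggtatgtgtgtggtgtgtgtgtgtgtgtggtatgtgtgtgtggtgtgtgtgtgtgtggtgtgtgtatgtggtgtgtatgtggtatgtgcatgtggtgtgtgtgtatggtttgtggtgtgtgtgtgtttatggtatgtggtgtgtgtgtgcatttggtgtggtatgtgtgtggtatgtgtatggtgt
Rnf144a: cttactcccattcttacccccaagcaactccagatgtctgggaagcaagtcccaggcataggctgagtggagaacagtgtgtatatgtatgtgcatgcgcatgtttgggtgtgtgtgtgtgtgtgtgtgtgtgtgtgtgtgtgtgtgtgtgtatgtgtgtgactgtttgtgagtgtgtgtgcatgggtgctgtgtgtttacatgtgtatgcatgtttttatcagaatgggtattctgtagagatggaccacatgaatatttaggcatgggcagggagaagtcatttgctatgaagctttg
Chd1: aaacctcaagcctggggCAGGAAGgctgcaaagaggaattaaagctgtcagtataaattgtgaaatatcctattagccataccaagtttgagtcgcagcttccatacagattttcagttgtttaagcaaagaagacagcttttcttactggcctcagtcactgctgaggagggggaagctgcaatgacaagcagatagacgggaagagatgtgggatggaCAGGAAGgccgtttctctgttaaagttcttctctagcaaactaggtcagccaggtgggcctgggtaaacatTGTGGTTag
Thbs1: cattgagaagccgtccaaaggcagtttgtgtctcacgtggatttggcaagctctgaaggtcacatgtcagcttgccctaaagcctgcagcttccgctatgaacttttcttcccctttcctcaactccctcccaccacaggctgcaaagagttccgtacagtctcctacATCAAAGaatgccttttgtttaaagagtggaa
Rgmb: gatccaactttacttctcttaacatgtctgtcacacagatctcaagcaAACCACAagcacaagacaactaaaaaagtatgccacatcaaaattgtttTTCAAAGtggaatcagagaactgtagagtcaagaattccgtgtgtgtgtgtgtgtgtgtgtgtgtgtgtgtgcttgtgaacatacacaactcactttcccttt

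The Enox1 island showed none of these motifs in its 200 bp. The Syne1 stretch was a nearly pure TG repeat and the Rnf144a stretch held a long TG run, neither with a motif match. The Chd1 stretch held 2 ETS matches and 1 RUNX match. The middle 300 bp of the dKO islands at Bnc1 and Inpp4b, not printed, held no match. That at Sgip1, also not printed, held 1 AP-1 match. The window near Thbs1, which lay in the part kept in dKO, held 1 Tcf/Lef match, and the window at Rgmb, in the part lost in dKO, held 1 Tcf/Lef match and 1 RUNX match. Because of the 2 repeats, runs of at least 8 TG or CA units were counted in all members, a choice made after these sequences were seen. The kept parts held 0.143 such runs per kb and the lost parts 0.159, a ratio of 0.899 (interval 0.751 to 1.07), against 1.03 (0.995 to 1.07) over all single-pair regions. A run was found in the kept part of 14.4% of members and 31.8% of all single-pair regions, whose kept parts are wider.

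The WT islands of the members had a median width of 4.6 kb (range 1 to 25 kb, quartiles 3.2 and 6.6 kb), against 1.2 kb (range 0.2 to 6.4 kb) for their dKO islands. The ratio of widths had a median of 3.75. It was at least 5 in 195 members, at least 10 in 19 and exactly 3 in 128. Together the members covered 4845 kb in WT and 1188.2 kb in dKO, with 665192 WT counts (0.805% of the WT list) and 135419 dKO counts (0.235% of the dKO list). The WT islands held a median of 571 counts and the dKO islands a median of 122. Counts scaled to the list totals were lower in dKO by at least 1.5 times in 901 of the 902 members, against 16.8% of all single-pair regions, which follows from the rule and is not read further.

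Many of the remaining dKO islands were small. They spanned at most 600 bp in 165 members, and 9 of them were a single 200 bp window with 43 to 67 counts. Under 100 dKO counts were found in 253 members, or 28.0%, against 2.196% of all single-pair regions. The narrowest dKO islands thus rest on few reads, and the dKO island in Enox1, at 43 counts, was at the smallest count found in the dKO list.

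**Figure D1:**
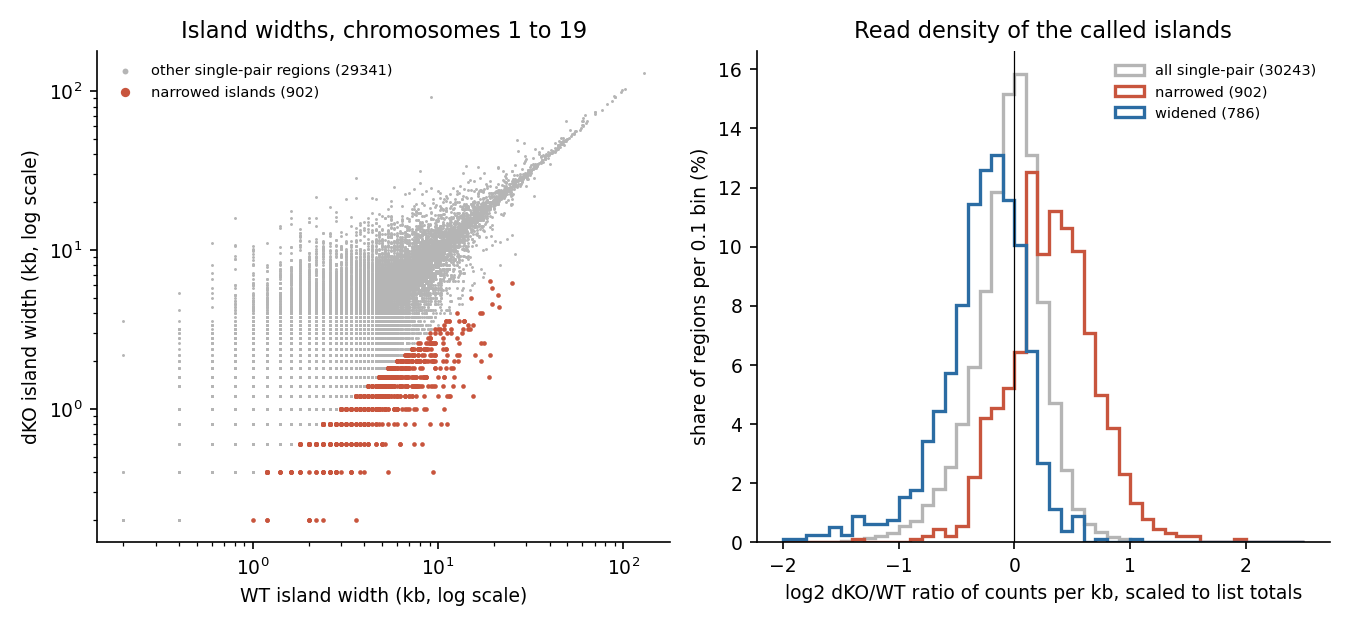
Left, width of the WT island (x, kb, log scale) and of the dKO island (y, kb, log scale) in 30243 single-pair regions, with the 902 narrowed islands in red, which fill the area below a ratio of 3 by construction. Right, distribution of the log2 dKO to WT ratio of read density (counts per kb, scaled to the total of each list), where narrowed islands had a median of 0.33 and widened islands a median of -0.23.

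Read density was taken as counts per kb of the called island. Each list's own island was used, so in members the WT value is averaged over a wider stretch than the dKO value. The members' WT islands had a median of 124.3 counts per kb, lower than the 144.4 of all single-pair WT islands, whereas their dKO islands had a median of 107.4, against 102.1. Scaled to the list totals, the density was higher in dKO in 741 of 902 members, or 82.2%, against 46.8% of all single-pair regions and 21.9% of the widened regions. The median log2 ratio of scaled density was 0.33 (interval 0.30 to 0.36, over members), against -0.02 for all single-pair regions and -0.23 for the widened ones. A density at least 1.5 times lower in dKO was found in 8 members, or 0.887%, against a background of 5.55%. A density at least 1.5 times higher was found in 211 members, or 23.4%, against 1.52%. Density and width come from the same calls that chose the members, so these shares carry no test.

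The members came mainly from WT islands of low density, and 695 of them, or 77.1%, were below the median of all single-pair WT islands. In the lowest quartile of WT density, up to 123.5 counts per kb, 438 of 7561 single-pair regions, or 5.79%, were narrowed. The share was 3.40% in the next quartile, 2.16% in the third and 0.580% in the highest, above 200 counts per kb. Widened regions did not follow this order, with 1.69%, 2.99%, 4.12% and 1.596%. WT width is the divisor of this density and also entered the choice of members, so these shares are descriptions. By WT width, 0.724% of single-pair regions were narrowed below 2000 bp and 2.36% from 2000 to 4000 bp. The share was 4.87% from 4000 to 8000 bp and 4.21% from 8000 to 30000 bp. On every autosome between 2.16% (chromosome 16) and 3.88% (chromosome 6) of single-pair regions were narrowed, with intervals of 1.501 to 3.11% and 3.11 to 4.83%.

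The dKO island lay wholly within the WT island in 816 members, or 90.5%, and passed an end of it in the other 86. An offset of 0 was given to a dKO island centred in the WT island and of 100 to one flush with an end. The median offset was 75 (interval 69.2 to 78.9), 332 members, or 36.8%, reached or passed an end, and 124, or 13.7%, had an offset under 20. Of the 816 inside, 246 were flush with an end and 570 were clear of both. The dKO centre was left of the WT centre in 458 members and right of it in 423. Calls were lost over a median of 3.4 kb in all and 2.8 kb on the longer side. In 150 members at least 5 kb was lost on a single side.

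**Figure D2:**
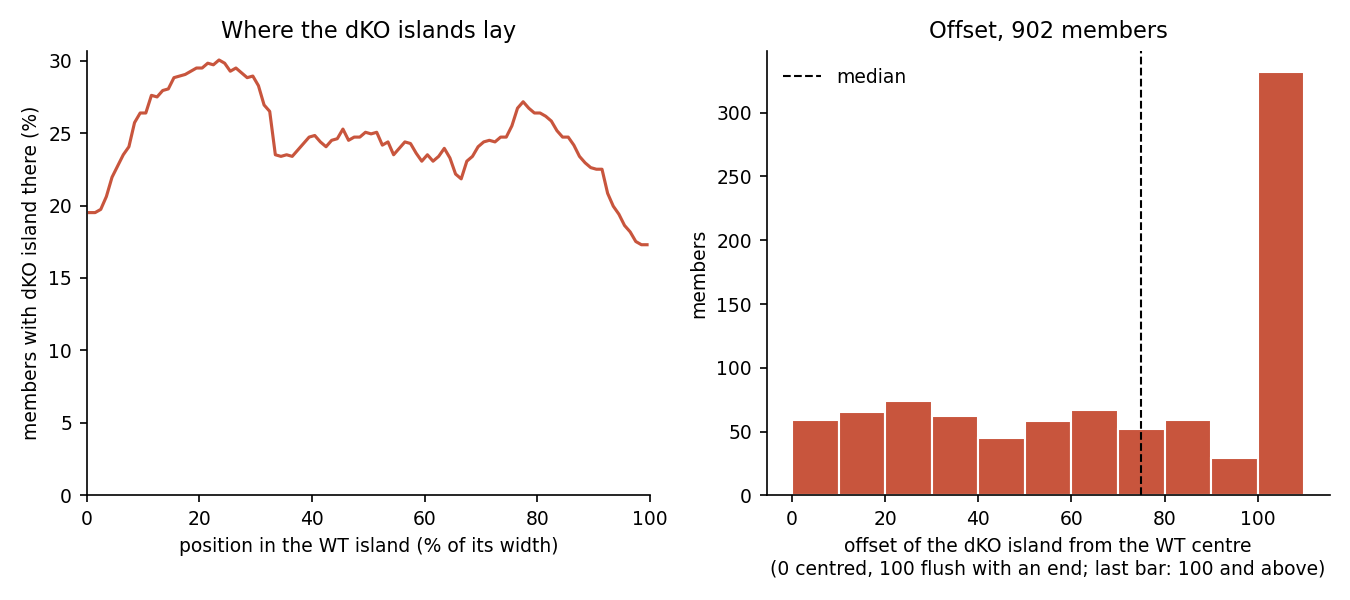
Left, share of the 902 members whose dKO island covered each position of the WT island (x, percent of its width from the lower coordinate), which lay between 17.3 and 30.04%. Right, number of members by offset of the dKO island from the WT centre, where the last bar, 332 members, holds those that reached or passed an end and the dashed line marks the median of 75.

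Distances to other islands were taken from the edges of the merged region for both lists. The dKO island sets such an edge only where it passes an end of the WT island, as in 86 members. It lay wholly within the WT island in 90.5% of members, 43.6% of all single-pair regions and 0% of the widened ones. The nearest other island was a median of 1.5 kb away in WT and 2.4 kb away in dKO, against 1.6 and 1.2 kb around all single-pair regions. A region with an island in WT alone lay within 10 kb of 335 members, or 37.1%, against 21.2% of all single-pair regions and 14.2% of the widened ones. A region with an island in dKO alone lay within 10 kb of 280 members, or 31.0%, against 42.2% and 56.9%. Within 100 kb of 247 members, or 27.4%, lay another member. No like share was computed for the other sets, so this is not read as clustering.

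In the protein-coding annotation, 371 members (41.1%, interval 38.0 to 44.4%) were intergenic, 266 (29.5%) intronic without an exon, 148 (16.4%) over an exon and 117 within 1 kb of a TSS. The promoter share was 12.97% (interval 10.9 to 15.3%), against 24.9% of all single-pair regions and 28.7% (27.9 to 29.6%) of the 11586 with a WT island of 3.2 to 6.6 kb. It was 12.3% (10.2 to 14.8%) in the widened regions, and the intervals of narrowed and widened regions overlapped. Of the single-pair regions at promoters 1.55% were narrowed, against 3.46% of the others. Members away from promoters were a median of 24.5 kb from the nearest protein-coding TSS, against 21.98 kb.

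**Figure D3:**
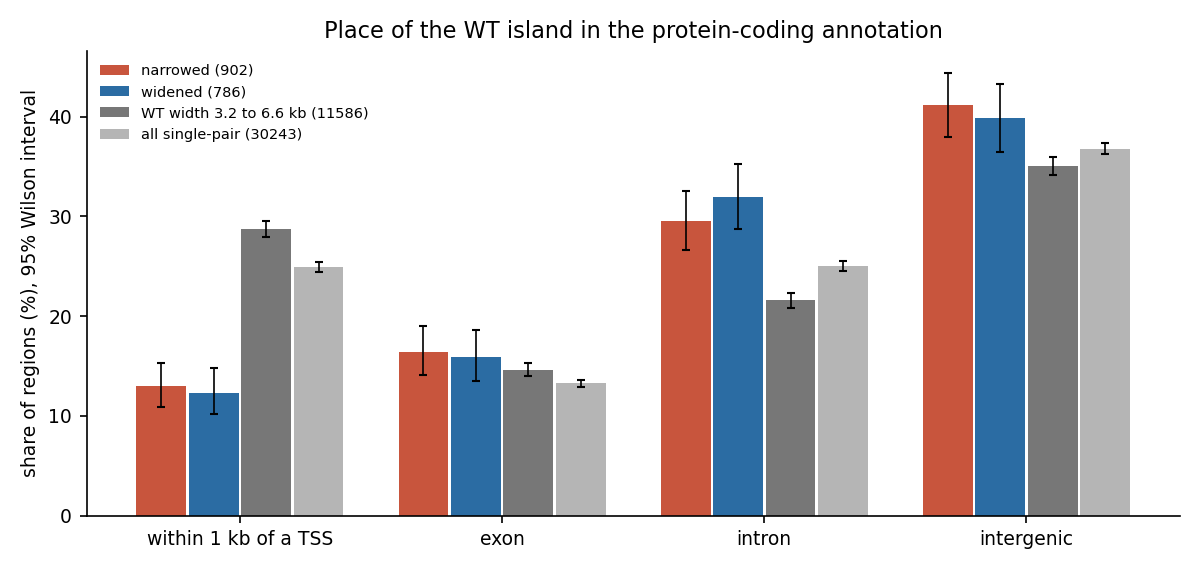
Share of WT islands (y, percent, bars from 0 with 95% Wilson intervals) within 1 kb of a protein-coding TSS, over an exon, in an intron or intergenic, for narrowed, widened, similarly wide and all single-pair regions. Narrowed islands were within 1 kb of a TSS in 12.97% and similarly wide islands in 28.7%.

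At the 117 promoter members the dKO island often did not reach the start site. It came within 1 kb of the TSS in 73, or 62.4% (interval 53.4 to 70.6%), against 97.6% of all promoter single-pair regions. The rule chose members for narrow dKO islands, which reach a TSS less often by construction. The share moved with the cut, to 78.2% with a width ratio of at least 2 and 44.2% with at least 4. It is a description, and anything in it beyond island width was not tested. A TSS lay inside the WT island of 98 promoter members and inside both islands of 54. In the 44 in which the TSS was covered in WT alone, the dKO island lay upstream of the nearest TSS in 27 and downstream in 17. Both promoter members and the others had higher scaled density in dKO, with median log2 ratios of 0.35 and 0.33.

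The kept and the lost part of each WT island differed in base composition. GC content was 47.1% in the kept parts and 44.2% in the lost parts, and the kept part was the richer of the pair in 762 members, or 84.5%, with a median difference of 3.20 percentage points. CpG dinucleotides stood at 12.7 per kb in the kept and 9.30 per kb in the lost parts. Away from promoters the same held to a lesser degree, with 46.5% and 43.9% GC and 10.4 and 8.94 CpG per kb. All single-pair regions showed similar values, 47.1% and 43.7% GC, inside and outside the dKO island.

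ETS motifs were denser in the kept than in the lost parts, and Tcf/Lef motifs were not. ETS matches stood at 0.638 per kb in the kept and 0.432 per kb in the lost parts, a ratio of 1.48 (interval 1.35 to 1.61). It was 1.33 (1.30 to 1.36) over all single-pair regions and 1.32 (1.28 to 1.36) over those with a similar WT width. In members away from promoters the ratio was 1.54 (1.39 to 1.69), against 1.31 (1.28 to 1.34) in single-pair regions away from promoters. In promoter members it was 1.20 (0.952 to 1.504), against 1.37 (1.31 to 1.43) at promoters. Tcf/Lef matches stood at 0.434 per kb in the kept and 0.461 per kb in the lost parts, a ratio of 0.941 (0.850 to 1.04) with an interval that spans 1. Over all single-pair regions that ratio was 0.885 (0.867 to 0.905). In promoter members the Tcf/Lef ratio was 0.663 (0.488 to 0.887), against 0.824 (0.789 to 0.862) in all promoter single-pair regions. In the other members it was 0.994 (0.892 to 1.11), against 0.928 (0.905 to 0.951) in single-pair regions away from promoters. With 2 further Tcf/Lef words the ratio over members was 0.933 (0.871 to 0.999), and with a width ratio of at least 2 it was 0.939 (0.888 to 0.994), so whether its interval spans 1 depends on the setting. For RUNX the ratio was 1.03 (0.909 to 1.16) and for AP-1 0.926 (0.790 to 1.08). None of these densities was adjusted for base composition, and the ETS words hold more G and C than the Tcf/Lef words. The part of GC content in the ratios was not tested. Kept parts made up 1144.4 of 4844.8 kb of sequence in members and 115948 of 138432 kb over all single-pair regions, so the parts compared differ in extent.

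A Tcf/Lef match was present in the WT island of 765 members, or 84.8%, against 82.8% of the single-pair regions of similar WT width. An ETS match was present in 84.9% and 87.4%, a RUNX match in 73.7% and 71.6%, and an AP-1 match in 57.8% and 55.5%. By density the members' whole WT islands held 0.456 Tcf/Lef and 0.482 ETS matches per kb, against 0.423 and 0.504 in those of similar width. Their GC content was 44.9%, against 46.1%, and the densities were not adjusted for it or for the lower promoter share of members. Away from promoters the Tcf/Lef density was 0.460 per kb in members and 0.434 in all single-pair regions. In the central 25% of the members' WT islands the Tcf/Lef density was 0.485 per kb, against 0.445 per kb in the outer parts, a ratio of 1.09 (0.990 to 1.20), against 0.961 (0.943 to 0.980) over all single-pair regions. Matches are letters in the sequence and were not tested for binding.

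**Figure D4:**
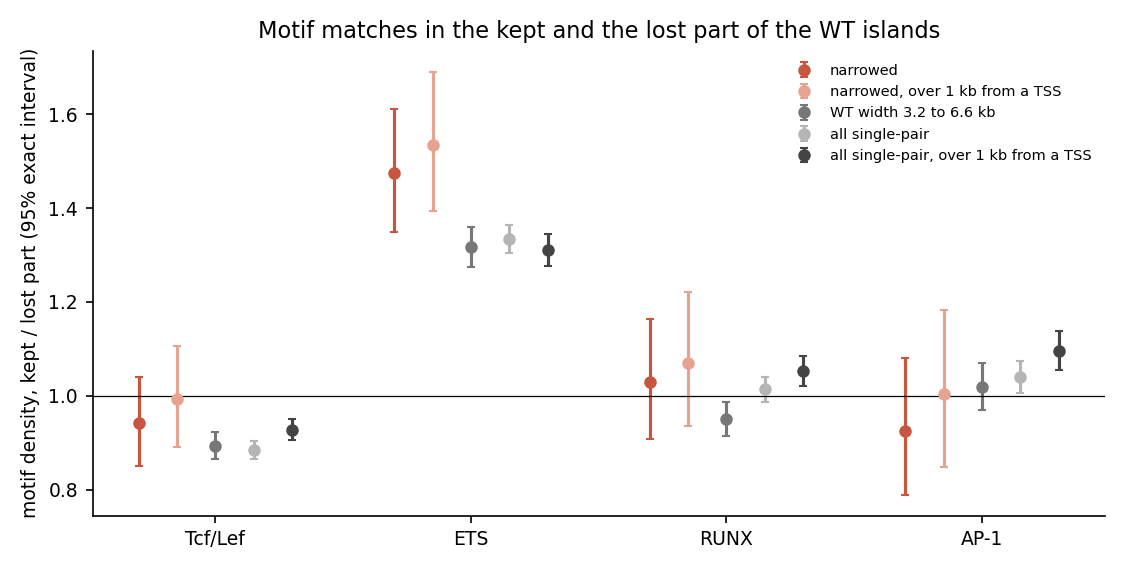
Ratio of motif density in the kept to that in the lost part of the WT islands (y, linear) for 4 motif families, with 95% exact intervals given the matches; the line marks equal density. ETS ratios were 1.48 in narrowed islands and 1.33 in all single-pair regions, whereas the Tcf/Lef interval of narrowed islands, 0.850 to 1.04, spans the line.

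The member with the largest ratio, 23.5, lay over Syne1, which encodes a nuclear envelope spectrin that tethers nuclei to the cytoskeleton. Its island was 9.4 kb wide with 1394 counts in WT and 0.4 kb wide with 62 counts in dKO, near the right end. In Enox1, an ecto-NOX oxidase gene, the middle of 3 members had a WT island of 3.6 kb (470 counts) and a dKO island of 0.2 kb (43 counts). Its neighbours on either side, 6 kb and 9.6 kb wide in WT, were 1 kb and 2.6 kb wide in dKO. The 3 members together held 2598 WT counts.

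Other large ratios were found in both genes and deserts. In Myo5b, an unconventional myosin gene, 8.2 kb with 990 counts stood against 0.6 kb with 77 counts. At the promoter of Sgip1, which encodes an endocytic adaptor, 10.4 kb with 1436 counts stood against 0.8 kb with 198 counts, and the TSS was not inside the dKO island. The density of that dKO island was higher than that of the whole WT island, 247.5 against 138.1 counts per kb before scaling (scaled log2 ratio 1.36, interval 1.14 to 1.58). No WT value exists for the 0.8 kb alone, so a gain there cannot be read.

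An intergenic member 60.2 kb from the Bnc1 TSS held 612 WT counts over 5.4 kb and 62 dKO counts over 0.4 kb. One 19.5 kb from the TSS of Chd1, a chromatin remodeller gene, held 967 WT counts over 7.4 kb and 86 dKO counts over 0.6 kb at the left end. In Inpp4b, whose product removes a phosphate from PI3K lipid products, the larger of 2 intronic members was 15.4 kb wide with 2648 WT counts and 1.2 kb wide with 144 dKO counts. The smaller, 2.2 kb with 281 counts, was 0.4 kb with 65 counts in dKO. In a desert, 642 kb and 189 kb from the Rnf144a TSS, 2 members held 1811 and 1353 WT counts and 92 and 191 dKO counts.

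**Figure D5:**
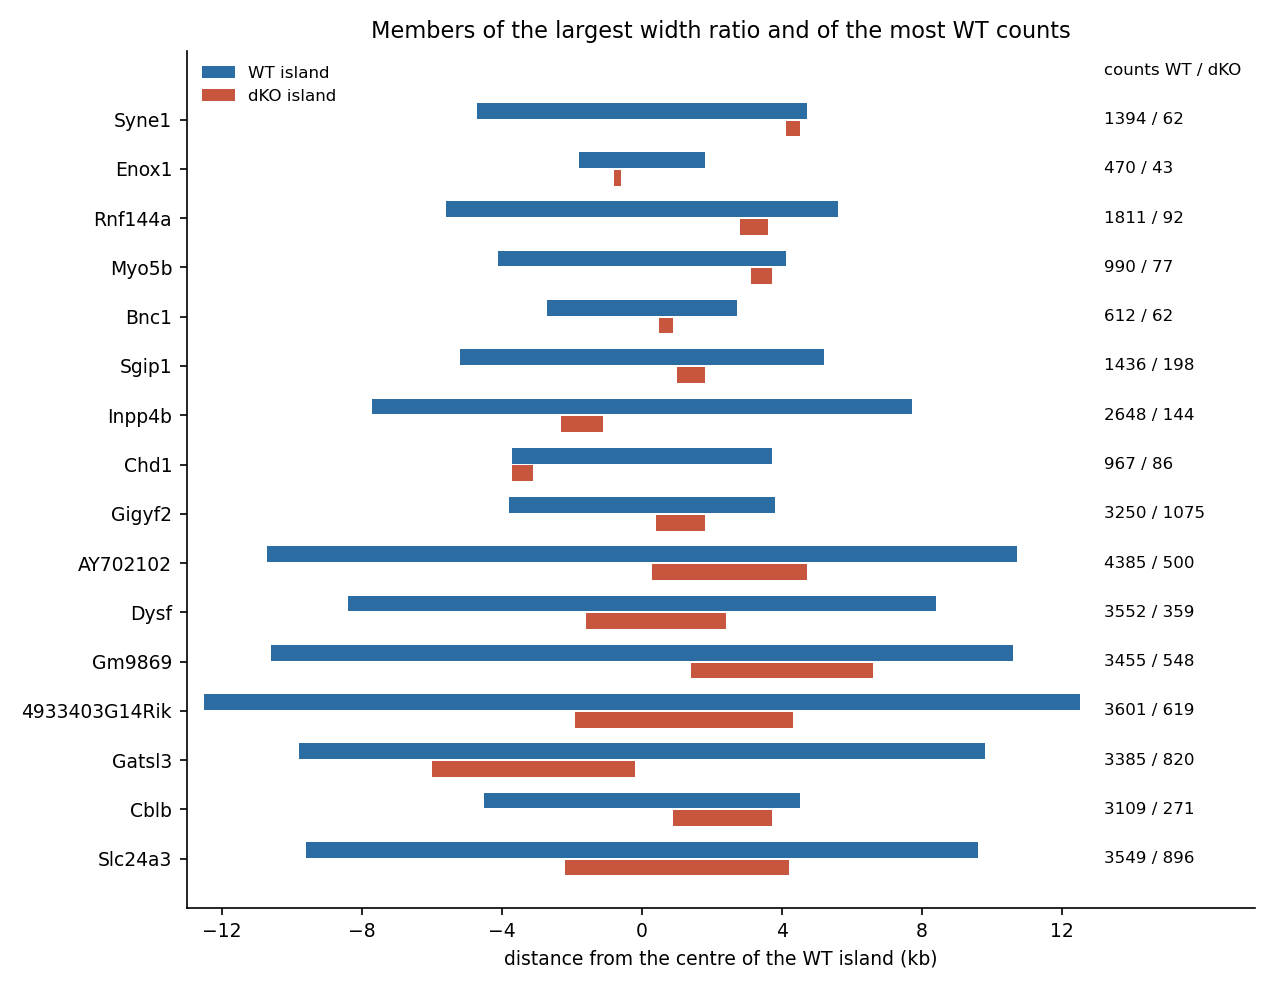
The 8 members of the largest width ratio and the 8 of the most WT counts, drawn to scale as WT (blue) and dKO (red) islands around the centre of the WT island (x, kb), with counts at the right and gene names of the body, promoter or nearest TSS. The dKO island was off centre in most, from the left end near Chd1 to the right end in Syne1.

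Of the 8 members with the most WT counts, all but that at Gigyf2 were at least 9 kb wide in WT and at least 2.8 kb wide in dKO. The largest count, 4385 over 21.4 kb, lay over the AY702102 promoter inside Tshz2, a teashirt zinc finger gene, and stood against 500 dKO counts over 4.4 kb. Tshz2 held 2 further members, 13 and 11 kb wide in WT, with 1700 and 1519 WT counts and 182 and 179 dKO counts. The scaled log2 density ratio was -0.33 (interval -0.47 to -0.20) at AY702102, and -0.14 and -0.11 at the other two, with intervals that span 0. Slc24a3, a sodium/calcium exchanger gene, held 3549 WT counts over 19.2 kb and 896 dKO counts over 6.4 kb in an intron.

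Dysf, which encodes the membrane repair protein dysferlin, had 3552 WT counts over 16.8 kb and 359 dKO counts over 4 kb. Its density was 211.4 (WT) and 89.8 (dKO) counts per kb (scaled log2 ratio -0.72, interval -0.88 to -0.56). At the promoter of Gatsl3, 3385 counts over 19.6 kb stood against 820 counts over 5.8 kb, and the dKO island still covered the TSS. Intergenic members nearest to 4933403G14Rik and Gm9869 were 25 and 21.2 kb wide in WT and 6.2 and 5.2 kb wide in dKO.

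Cblb, which encodes an E3 ubiquitin ligase that restrains T cell receptor signalling, combined narrowing with the lowest density ratio of all members. Its island, chr16:52141601-52150600, over an exon 2.04 kb from the TSS, was 9 kb wide with 3109 counts in WT and 2.8 kb wide with 271 counts in dKO. The densities were 345.4 and 96.8 counts per kb (scaled log2 ratio -1.32, interval -1.50 to -1.14). The next lowest ratios were -0.82 near Ccdc152, -0.72 in Dysf, -0.70 in Slc4a4 and -0.68 at the second member near Rnf144a. At Cblb and at these members the lists hold no WT value for the stretch of the dKO island alone. A loss within that stretch therefore cannot be read from these ratios.

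At the promoter of Gigyf2, a translational repressor gene, the density ratio was positive. The WT island held 3250 counts over 7.6 kb (427.6 per kb) and the dKO island 1075 counts over 1.4 kb (767.9 per kb), around the TSS. Averaged over each list's own island, the scaled density was higher in dKO by 1.36 on the log2 scale (interval 1.26 to 1.46). The lists hold no WT value for the 1.4 kb alone, so a gain there cannot be read from this ratio. The highest ratios among members whose 2 counts summed to at least 200 were in small islands, 1.93 at St8sia4, 1.52 in Adarb2, 1.45 in Tnik, 1.45 near A130050O07Rik and 1.37 in Bard1, whose dKO islands were 0.2 to 0.4 kb wide. St8sia4, a polysialyltransferase gene, held 215 WT counts over 2 kb and 57 dKO counts in 1 window.

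Of the protein-coding genes, 489 had a member over their body, 51 had at least 2, 8 had at least 3 and 1 had 4. The gene with 4 was Gm16039, a long gene model that overlaps Glcci1, with 20 single-pair regions in all. Nebl, which encodes an actin-binding protein, had 3 members among 8 single-pair regions, 12, 8 and 5.2 kb wide in WT and 1.8, 2.4 and 1.6 kb wide in dKO, the last over the TSS in both. Slc4a4, a bicarbonate transporter gene, had 3 among 5, with 913, 687 and 1238 WT counts and 132, 146 and 177 dKO counts. Celf2, an RNA-binding protein gene, had 3 among 22.

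Super-enhancers (SEs), clusters of strongly acetylated enhancers, were listed by the study as stronger in WT or in dKO on the basis of these libraries, so overlap with them is not independent of the narrowing. The lists of SEs, hubs and accessible sites used here hold those that the study linked to genes, and not every one it found. A WT-prepotent SE held 24 members (2.66%, against 1.55% of all single-pair regions), and 17 of the 49 listed, or 34.7%, held at least 1. A dKO-prepotent SE held 5 members (0.554%, against 2.90%), and 3 of 88 listed, or 3.41%, held 1 or more. In widened regions the shares were 1.65% and 6.87%. The 24 members spanned 192.8 kb with 26480 WT counts and 41.2 kb with 4207 dKO counts, and their median log2 ratio of scaled density was 0.12.

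Among these 24, a pair of intergenic members 84.5 and 46.9 kb from the TSS of Odc1, the gene of the polyamine enzyme ornithine decarboxylase, were each 17 kb wide in WT. They held 2237 and 2289 WT counts, and 157 and 216 dKO counts over 2 and 2.6 kb. Near Lif, a cytokine gene, 9.2 kb with 1639 counts stood against 1.4 kb with 146 counts. At Grb10, which encodes a growth factor receptor adaptor, 11 kb with 1447 counts stood against 2.4 kb with 182 counts, and the TSS was left out of the dKO island. In Inpp5f, a phosphoinositide phosphatase gene, 9 kb with 1109 counts stood against 0.8 kb with 83 counts. Near Hbs1l, 9.6 kb with 1408 counts stood against 2 kb with 178 counts at the right end.

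Chromatin interaction hubs listed as WT-specific overlapped 9 members (0.998%, against 0.714%), among them those at Ms4a4b, Lipa, Ifit2 and both at Gabrr2, and dKO-specific hubs overlapped 2 (0.222%, against 0.483%), at Syt5 and Herc2. The study listed accessible sites as C1 to C4, of which C1 and C3 were more and C2 and C4 less accessible in dKO. It linked C1 and C2 to genes higher in dKO, and C3 and C4 to genes lower in dKO. By its Tcf1 ChIP-seq, all C2 sites and most C4 sites overlapped Tcf1 peaks. Sites of C1 and C3 fell in 0 members, against 37 and 3 single-pair regions (0.122% and 0.00992% of them). Sites of C2 and C4 fell in 1 member each (0.111% of members), against 23 and 25 single-pair regions (0.0761% and 0.0827%). With 2.98% of single-pair regions narrowed, so few sites are not read as differing from that share. The C2 site lay near the centre of a 12.2 kb WT island with 1872 counts that was 2 kb wide with 196 counts in dKO. The edge of that WT island was 97.8 kb from the Thbs1 TSS. The C4 site lay at Rgmb, a BMP co-receptor gene, whose WT island of 8.4 kb and 2397 counts was 2 kb and 427 counts in dKO, with the TSS inside both islands. These are the members whose windows with a Tcf/Lef match are printed above.

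Genes that the study listed as lower in dKO, from its RNA-seq, had 11 members over the body or promoter (1.22%, against 1.247% of all single-pair regions), in 9 genes. The 6 with the most WT counts were at Gatsl3, Inpp4b, Rgmb, Casz1, Inpp5f and Gabrr2. Casz1, a zinc finger factor gene, held 1398 WT counts over 10 kb and 130 dKO counts over 1.6 kb in an intron. Genes listed as higher in dKO had 6 members in 6 genes (0.665%, against 1.58%), with Prkce, a protein kinase C gene, the broadest at 10.8 kb and 1385 WT counts against 1.6 kb and 150 dKO counts. The others were at Gprin3, Nedd4, Igf1r, Cxadr and Mxi1. Neither share stood above that of all single-pair regions.

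Gene lists for naive T cell homing and quiescence, cytotoxic effectors, cytokine receptors, chemokine receptors and integrins, and inhibitory receptors had 0 members, in 38, 36, 37, 40 and 44 single-pair regions. With 2.98% of all single-pair regions narrowed, lists of this size would hold few members, and the counts of this and the next paragraph are not read as differing from that share. The T cell receptor signalling list had 2 of 89, at Cblb and at Stim1, the calcium sensor of the endoplasmic reticulum. The list of T cell transcription factors had 3 of 155, in Sp4, Nfkb1 and the E-protein gene Tcf12. The Tcf12 member was 2.4 kb with 373 counts in WT and 1 window of 45 counts in dKO. The Wnt pathway list had 3 of 71, in the inhibitor gene Nkd2, the co-receptor gene Lrp6 and the kinase gene Gsk3b. The PI3K list had 3 of 98, both Inpp4b members and 1 in Rictor, a core mTORC2 subunit gene.

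The B cell list had 1 of 32, in Sykb, the annotation's name for the Syk kinase gene, and the chromatin organiser list had 1 of 40, in the condensin gene Smc2. Islands at Nkd2 kept the TSS, at a scaled log2 density ratio of 0.27 (interval -0.04 to 0.57). These small members, apart from Cblb and Inpp4b, held 243 to 530 WT counts and 45 to 129 dKO counts.

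The cut at a ratio of 3 divides a continuum. Just inside it, at a ratio of exactly 3, the members with the most WT counts were in Slc24a3, near Pias1 (15 kb with 2094 counts against 5 kb with 415 counts) and at Spopl (6 kb with 1898 counts against 2 kb with 635 counts). Just outside, Pde4d had a ratio of 2.94 (10 kb with 1417 counts against 3.4 kb with 371), and Fanci and Aldh3a2 had a ratio of 2.92. When islands of a list within 1 kb of each other were joined first, 880 regions met the rule, and 563 of the 902 members, or 62.4%, were still narrowed.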

How the data were processed

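H3K27ac ChIP-seq was analysed from the lists of islands that the authors deposited, 1 per genotype. Per the labels and methods, the authors aligned reads to mm9 with Bowtie2 2.2.5, kept uniquely mapped reads, pooled the replicates and called islands with SICER 1.1. The deposited values are raw read counts per island, not scaled for depth or width. All 147776 islands ended inside the NCBIM37 (mm9) chromosomes. Starts were counted from 1. Islands of the 2 lists sharing at least 1 bp were merged (Python 3.11.15, pandas 2.3.3). Scaled ratios divided counts, or counts per kb, by the list's total island counts, and a ratio of 1.5 either way was called. Shares have 95% Wilson intervals, medians order-statistic intervals, and ratios of counts or motif densities exact Clopper-Pearson intervals (scipy 1.17.1). A promoter reached 1 kb either side of a GENCODE vM1 protein-coding TSS. Symbols missing there were matched through RefSeq synonyms. The kept part is the part of a WT island inside the dKO island, the lost part the rest. Input samples were not used here.

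Named members were the 8 of the largest width ratio, the 8 of the most WT counts, those with a listed accessible site, up to 4 per gene list and 6 per direction of listed changed genes, those in the 6 genes with most members (ties by WT counts), 3 on each side of the threshold, and 5 at each end of the density ratio among those with at least 200 counts. Members in listed SEs and hubs were named after their values were seen. The members and lists were chosen with earlier results of these data known. Positions and names of sites, SEs, hubs and changed genes came from the study's lists. Steps were tested on simulated lists. The island check at 2 further marker genes is not reported here.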

Additional observations from a re-analysis of the deposited data

How the results depend on the processing

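No paired analysis was possible because each list pools its replicates, and for the same reason no replicate could be left out. Of 52 alternative values, 29 stayed within the interval or within 1.5 times the count, and no median changed sign. With a width ratio of at least 2, 2663 regions were narrowed and 2443 widened, the median log2 density ratio was 0.23, 24 members were lower in density, 78.2% of promoter members had the dKO island within 1 kb of the TSS, the median offset was 85.7, and 81 members lay in listed SEs and 65 over changed genes (main values 29 and 17). With at least 4, the values were 398 narrowed, 348 widened, 0.37, 2 members lower, 10.8% at promoters, 44.2% within 1 kb of the TSS and 9 over changed genes. Joining islands within 1 kb gave 880 narrowed and 1024 widened regions, so that widened ones became the more numerous, 16.5% at promoters and an offset of 69.0. With at least 300 WT counts, 173 regions were widened and the density ratio was 0.27. With the median count ratio scaled to 0, the density ratio was 0.41 and 5 members were lower. A promoter of 2.5 kb gave 18.0%, and genes reaching 50 kb upstream gave 43 over changed genes. Beyond the construction of each setting, the cause was not tested. Where the dKO list has few counts, 1 or 2 windows set an island's width, and the lists differ in total counts, so a lower dKO depth and a narrower mark cannot be told apart at a weak island.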
